A study of Mus musculus with 11 samples.

Results

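Neuronal nicotinic acetylcholine receptors were examined through 8 of their subunit genes, Chrna3, Chrna4, Chrna5, Chrna6, Chrna7, Chrnb2, Chrnb3 and Chrnb4. They were taken by gene name from the 55401 gene rows of each count table, and all 8 were found. The tables describe neurons of the trigeminal ganglion, which carry sensation from face and mouth, traced retrogradely with DiI, sorted by fluorescence and sequenced as poly(A) RNA. The groups were MOC1 females (3 libraries), MOC1 males (3), sham females (3) and sham males (2, numbered 1 and 3), or 6 MOC1 and 5 sham libraries. MOC1 is a line of oral squamous carcinoma cells from mouse. MOC1 mice bore its tumours, and sham mice were their controls. Ganglia of both sides were taken, and every library was traced, dissociated and sorted in the same way. Strain, age, and whether each library is a separate animal are not given in the sources used here, so p-values measure only the spread between these libraries, which may be technical.

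Nicotinic receptors are pentameric channels of the Cys-loop family that open on binding acetylcholine or nicotine and admit cations. The subunits present in a cell set the type of receptor it can build. Chrna3 with Chrnb4 makes the ganglionic receptor of autonomic neurons, Chrna4 with Chrnb2 makes the main high-affinity nicotine receptor of the brain, and Chrna7 can form a channel on its own. Chrna6 and Chrnb3 are best known from midbrain dopamine neurons and the retina, and Chrna6 is also known from mouse dorsal root ganglion neurons. Chrna5 and Chrnb3 act as accessory subunits.

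In all, 5 of the 8 genes lie in a pair of clusters, with positions on GRCm38 as the files give them. Chrna5 lies on the plus strand of chromosome 9 (chr9:54980880-55007779), followed on the minus strand by Chrna3 (chr9:55010111-55026562) and Chrnb4 (chr9:55028154-55048779). The gaps between them are 2331 and 1591 bp, and no annotated gene lies in either gap. Chrnb3 (chr8:27368711-27399730, plus strand) and Chrna6 (chr8:27403212-27413944, minus strand) are 3481 bp apart. Chrna4 (chr2:181018380-181043546), Chrna7 (chr7:63098692-63212569) and Chrnb2 (chr3:89746195-89764632) lie alone, all on the minus strand. Chrnb2 overlaps Adar, and Chrnb4 overlaps Gm47877, each on the other strand. Counting was strand-specific, so those partners were counted apart. Gm44741 overlaps Chrna7 on the same strand, so strand does not separate their reads. Whether they share exons was not examined.

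Promoter sequence is shown for the chromosome 9 cluster because its genes sit side by side while Chrna5 alone of the 3 had no reads, and for Chrnb2, the member with an entry that had the highest level. Each window covers 250 bases before to 50 after a start annotated by RefSeq on GRCm38.p6, 5′ to 3′ on the gene's strand. Of the 8 genes, 6 matched the RefSeq table, with 7 entries. Capitals mark the GC box GGGCGG on either strand, the letters bound by Sp1-type factors.
Chrna5, plus strand, chr9:54981238-54981537: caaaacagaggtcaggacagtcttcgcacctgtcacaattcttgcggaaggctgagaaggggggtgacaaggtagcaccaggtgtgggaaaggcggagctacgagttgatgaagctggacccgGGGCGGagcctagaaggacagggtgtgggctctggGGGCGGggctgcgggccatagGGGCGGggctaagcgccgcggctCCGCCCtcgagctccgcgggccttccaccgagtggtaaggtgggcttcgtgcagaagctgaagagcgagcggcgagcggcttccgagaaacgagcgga
Chrna3, minus strand, chr9:55026513-55026812: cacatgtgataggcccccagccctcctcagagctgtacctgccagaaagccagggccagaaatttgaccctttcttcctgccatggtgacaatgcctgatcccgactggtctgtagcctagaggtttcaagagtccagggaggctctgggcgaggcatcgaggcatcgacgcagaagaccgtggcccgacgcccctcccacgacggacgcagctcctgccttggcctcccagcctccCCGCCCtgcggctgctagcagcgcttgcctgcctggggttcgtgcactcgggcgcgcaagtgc
Chrnb4, minus strand, chr9:55048495-55048794: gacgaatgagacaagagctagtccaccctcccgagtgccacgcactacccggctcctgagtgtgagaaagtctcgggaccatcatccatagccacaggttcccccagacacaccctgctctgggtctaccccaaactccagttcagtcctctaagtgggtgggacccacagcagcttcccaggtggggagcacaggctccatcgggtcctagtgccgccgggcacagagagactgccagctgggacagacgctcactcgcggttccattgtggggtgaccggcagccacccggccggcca
Chrnb2, minus strand, chr3:89764583-89764882: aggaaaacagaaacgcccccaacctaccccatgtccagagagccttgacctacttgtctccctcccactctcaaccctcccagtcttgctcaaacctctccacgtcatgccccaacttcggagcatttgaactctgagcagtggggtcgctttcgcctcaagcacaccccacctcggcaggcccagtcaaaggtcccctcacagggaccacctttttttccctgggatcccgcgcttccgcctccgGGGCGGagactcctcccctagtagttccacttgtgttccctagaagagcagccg

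The Chrna5 window held 4 GC boxes and 25 CpG dinucleotides, and the other Chrna5 start, at chr9:54980630-54980929, held 0 and 5. The Chrna3 window held 1 GC box and 18 CpG, the Chrnb4 window 0 and 14, and the Chrnb2 window 1 and 12. Of the members whose sequence is not shown, the Chrna4 window held 3 GC boxes and 33 CpG, and the Chrna7 window 1 and 35. GGGCGG occurred in 11714 of 32851 windows of the same length (35.7%), whose median CpG number was 7. These matches describe the letters only.

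Each library held 10757426 to 16703797 counts in genes, with 14180 to 19078 genes detected. Levels are CPM, counts scaled to library size, after TMM normalization, which assumes most genes do not change. The pan-neuronal markers were summed at 21515 to 24643 CPM in MOC1 libraries and 17141 to 19637 CPM in sham libraries, with all 20 detected. Satellite glia markers were summed at 3418 to 5982 CPM in MOC1 libraries and 9223 to 11020 CPM in sham libraries, and their 16 genes were all detected. The sorted neurons thus carried glial RNA in both arms, less of it in MOC1 libraries. In bulk samples fewer cells of a type and less RNA per cell cannot be told apart. Of the 12 autonomic neuron markers, 4 (Dbh, Phox2a, Hand1 and Hand2) had 0 counts in every library, and 4 others passed the low-count filter. The 12 genes were summed at 12.7 to 25.6 CPM in MOC1 libraries and 11.1 to 38.6 in sham libraries. Sham female 1 stood apart by endothelial and mural markers (1477 CPM, the highest of all libraries). MOC1 female 3 and MOC1 male 2 had the fewest detected genes. The results are also given without these 3 libraries where a call changes.

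Chrna6 was the most abundant of the 8 per length. Levels per kilobase divide by the length of all annotated exons joined, so they depend on that length. Which transcripts the cells used was not examined. Chrna6 averaged 49.0 ± 9.52 CPM per kb in MOC1 and 40.8 ± 3.14 CPM per kb in sham libraries (SD, n = 6 and 5). Chrnb2 followed at 14.4 ± 1.68 CPM per kb in MOC1 and 11.7 ± 1.05 CPM per kb in sham libraries. Chrnb3 was at 7.68 ± 0.835 CPM per kb in MOC1 and 7.46 ± 0.458 CPM per kb in sham libraries, close to Chrna7 at 5.87 ± 1.75 CPM per kb in MOC1 and 6.00 ± 1.23 CPM per kb in sham libraries. Chrna4, the partner of Chrnb2 in the brain receptor, and the autonomic pair Chrna3 and Chrnb4 were far lower. Chrnb4 was at 1.35 ± 0.946 CPM per kb in MOC1 and 1.20 ± 0.306 CPM per kb in sham libraries, and Chrna3 at 1.32 ± 0.850 and 0.907 ± 0.498 CPM per kb in MOC1 and sham libraries in that order. Chrna4 was the lowest detected member, at 0.586 ± 0.357 CPM per kb in MOC1 and 0.193 ± 0.175 CPM per kb in sham libraries.

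**Figure D1:**
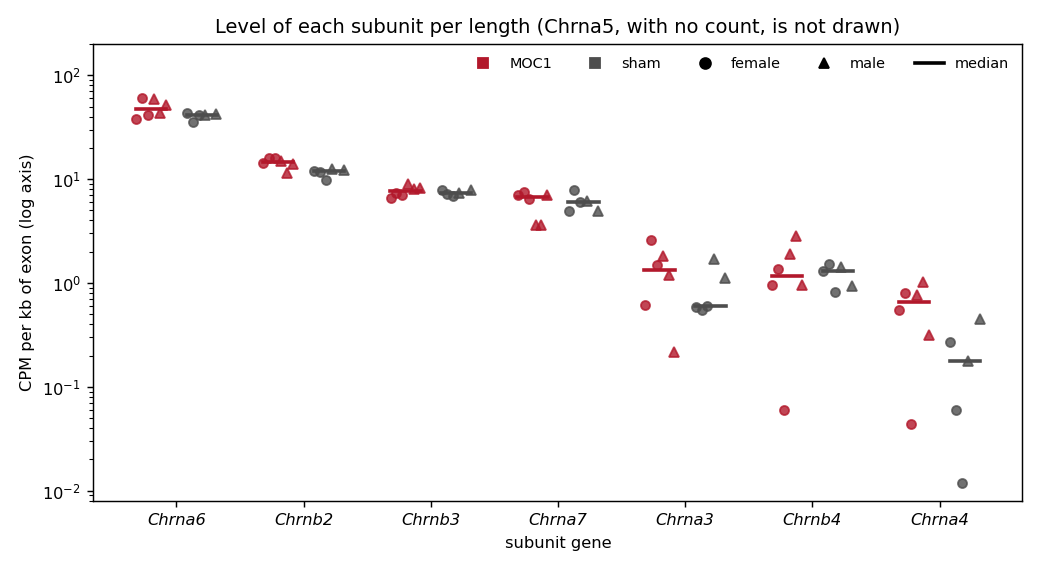
Level of each subunit in CPM per kilobase of exon (log axis), with MOC1 libraries left of sham libraries; circles are female and triangles male libraries, and lines are group medians. Chrna6 lies above all others, Chrna4 has the lowest medians, and Chrna5, with no count, is not drawn.

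The order per kilobase over all 11 libraries was Chrna6, Chrnb2, Chrnb3, Chrna7, Chrnb4, Chrna3, Chrna4, Chrna5. The ranges did not overlap between Chrna6 and Chrnb2, between Chrnb2 and Chrnb3, or between Chrna7 and Chrnb4. Chrna4 lay above Chrna5, which had no counts, in 11 of 11. The remaining neighbours overlapped: Chrnb3 exceeded Chrna7 in 8 of 11 libraries, Chrnb4 exceeded Chrna3 in 7 of 11, and Chrna3 exceeded Chrna4 in 10 of 11. In CPM not divided by length, Chrna6 (103 to 177) and Chrnb2 (83.0 to 134) did overlap. By that measure Chrnb3 (42.2 to 57.0) lay above Chrna7 (16.4 to 35.7) in every library. The shares and ratios that follow are per kilobase and depend on the lengths too. Chrna6 made up 60.7% ± 3.51 of the summed per-kilobase level of the subunits in MOC1 libraries and 59.7% ± 3.19 in sham libraries. Chrnb2 made up 18.1% ± 2.56 in MOC1 and 17.2% ± 1.24 in sham libraries. The share of Chrnb3 was 9.68% ± 1.14 in MOC1 and 10.9% ± 0.461 in sham libraries. For Chrna7 it was 7.43% ± 2.39 in MOC1 and 8.86% ± 2.16 in sham libraries. The per-kilobase ratio of Chrna6 to Chrnb2 was 3.42 ± 0.604 in MOC1 and 3.51 ± 0.440 in sham libraries. These shares are a description of the RNA and were not tested.

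The comparison of MOC1 with sham asks which transcripts differ in neurons from tumour-bearing mice, with sex as a term. No subunit passed edgeR's quasi-likelihood test with Benjamini-Hochberg adjustment over 16817 genes (0 of 7 tested, of 8 members), where 6.62% of all genes were called. Chrnb2 and Chrna6 had an unadjusted p under 0.05, as did 18.5% of all genes. DESeq2 also called 0, with 3 at an unadjusted p under 0.05 and a smallest adjusted p of 0.0505. The median log2 fold change of the 7 was 0.25, and over all genes it was -0.03. The libraries of the arms overlapped for every subunit, and 6.33% of all genes tested did not overlap.

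**Figure D2:**
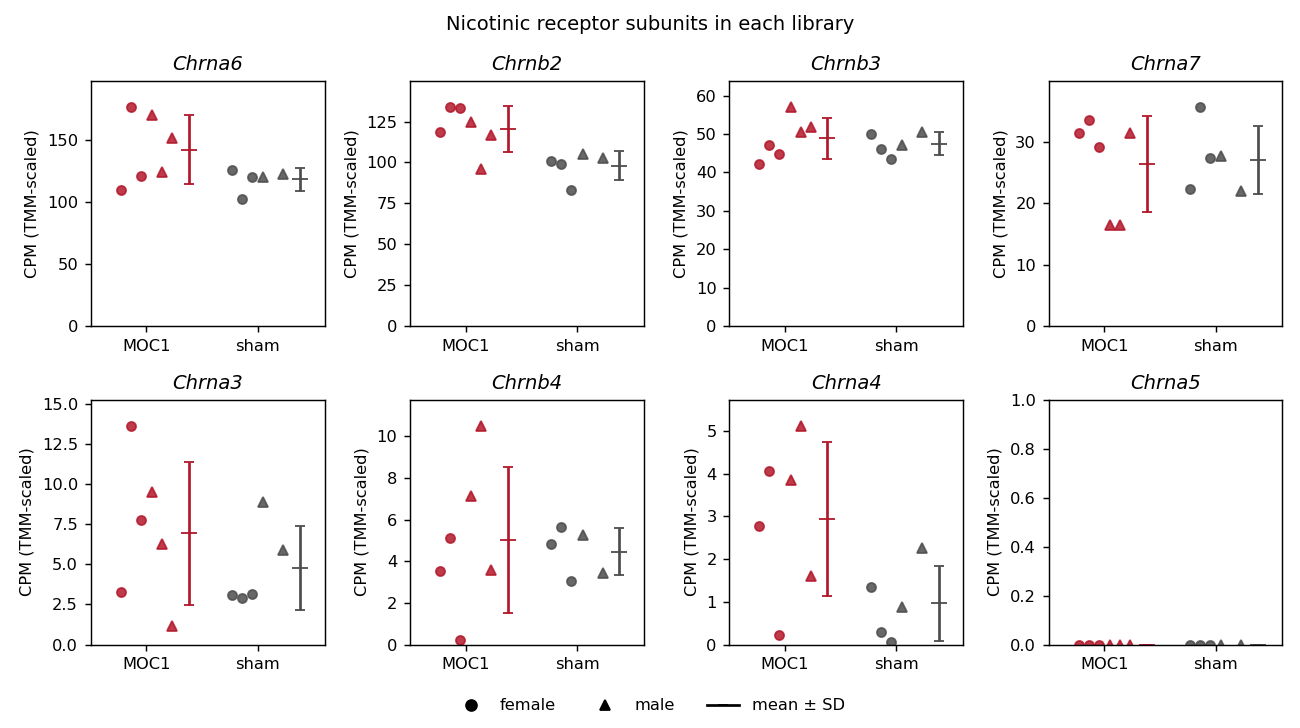
Level of each subunit in every library in CPM, with MOC1 left of sham, circles for females, triangles for males and bars for mean ± SD. The values overlap between arms for every subunit, and Chrna5 is at 0 throughout.

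Chrnb2, the partner of Chrna4 or Chrna6 in heteromeric receptors, came closest to the threshold. It was at 119, 134 and 134 CPM in MOC1 females, at 125, 95.7 and 117 CPM in MOC1 males, at 101, 98.8 and 83.0 CPM in sham females and at 105 and 103 CPM in sham males. All MOC1 libraries but male 2 lay above every sham library. The means were 121 ± 14.1 CPM in MOC1 libraries and 98.1 ± 8.82 in sham libraries (SD, n = 6 and 5). Its log2 fold change was 0.30 ± 0.10 (SE, 95% interval 0.09 to 0.51, 1.23-fold), with an unadjusted p of 0.00739 and an edgeR adjusted p of 0.0849. With single libraries left out the log2 fold change lay at 0.24 to 0.36 and the edgeR adjusted p at 0.0216 (without MOC1 male 2) to 0.199 (without sham female 3). No other single removal gave a call. Without all 3 libraries that stood apart it was 0.35, with an adjusted p of 0.0323.

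The pan-neuronal markers had a median log2 fold change close to that of Chrnb2, at 0.29. At an edgeR adjusted p under 0.05, 11 of their 20 genes were called higher in MOC1 libraries and 0 lower. Of the satellite glia markers, 14 of 16 were called lower, where 6.62% of all genes were called in either direction. Scaled to the summed pan-neuronal counts, which moved the median of all genes to -0.32, the log2 fold change of Chrnb2 was -0.00. The part of the neuronal and glial shares in the Chrnb2 difference was not tested.

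**Figure D3:**
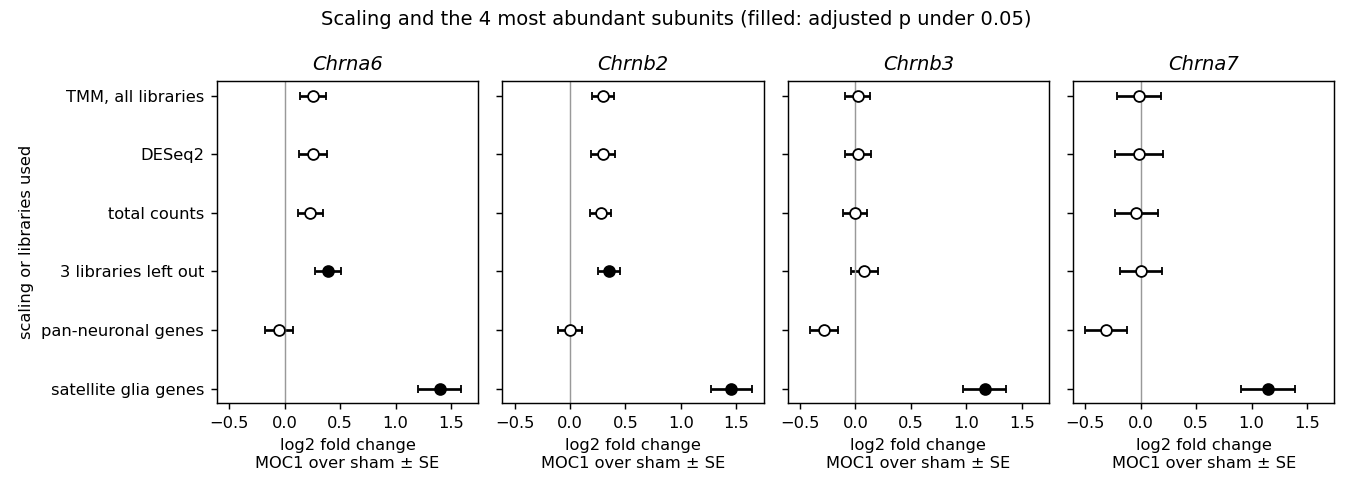
Log2 fold change (MOC1 over sham) ± SE of the 4 most abundant subunits under each scaling, with DESeq2 and without 3 libraries; filled points have an adjusted p under 0.05. Pan-neuronal scaling puts Chrna6 at -0.05 and Chrnb2 at -0.00, and satellite glia scaling puts all 4 above 1.

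Chrna6, which needs a beta subunit to form a channel, was at 109.9, 177 and 121 CPM in MOC1 females, at 170.1, 125 and 151 CPM in MOC1 males, at 126, 103 and 120.3 CPM in sham females and at 121 and 123 CPM in sham males. MOC1 female 2, male 1 and male 3 lay above all sham libraries, and the others lay among them. Means were 142 ± 27.7 CPM in MOC1 libraries and 118 ± 9.13 in sham libraries. MOC1 over sham, the log2 fold change was 0.25 ± 0.12 (SE, 95% interval 0.01 to 0.50, 1.19-fold), with an edgeR adjusted p of 0.247. With single libraries left out it lay at 0.14 (without MOC1 female 2, adjusted p 0.578) to 0.32 (without MOC1 female 1, adjusted p 0.122). Without the 3 libraries that stood apart it was 0.39, with an adjusted p of 0.0476. Of these, sham female 1 was the highest sham library for Chrna6, and MOC1 female 3 and male 2 were among the lowest MOC1 libraries. Leaving them out was thus bound to raise the difference. Scaled to pan-neuronal counts the log2 fold change was -0.05. With the sexes pooled, the SD between MOC1 libraries was 8.78 times that expected from counting alone, and between sham libraries 3.41 times.

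Chrnb3, the accessory subunit next to Chrna6, had the smallest spread of the 7 subunits with counts (coefficient of variation 8.81% over all libraries). It was at 42.2, 47.1 and 44.9 CPM in MOC1 females, at 57.0, 50.7 and 51.8 CPM in MOC1 males, at 50.2, 46.1 and 43.5 CPM in sham females and at 47.2 and 50.5 CPM in sham males. The highest library had 1.35 times the level of the lowest. On the log2 scale the fold change was 0.02 ± 0.11 (SE, 95% interval -0.21 to 0.25), with an edgeR adjusted p of 0.956. Despite their adjacency, Chrna6 and Chrnb3 thus gave different estimates, 0.25 and 0.02, with overlapping intervals. Their difference was not tested. Their per-kilobase ratio was 6.36 ± 1.00 in MOC1 and 5.47 ± 0.429 in sham libraries.

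Chrna7, the subunit of the homomeric, calcium-permeable receptor, was at 31.4, 33.6 and 29.3 CPM in MOC1 females and at 16.4, 16.4 and 31.4 CPM in MOC1 males. In sham libraries it was at 22.4, 35.7 and 27.4 CPM in females and at 27.7 and 22.0 CPM in males. MOC1 males 1 and 2 lay below every sham library. Means were 26.4 ± 7.87 CPM in MOC1 libraries and 27.0 ± 5.52 in sham libraries. The log2 fold change was -0.02 ± 0.20 (SE, 95% interval -0.43 to 0.40), with an edgeR adjusted p of 0.981.

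The remaining detected subunits had few counts and spread widely. Chrna3, the alpha subunit of the autonomic receptor, was at 3.25, 13.6 and 7.80 CPM in MOC1 females, at 9.52, 6.24 and 1.15 CPM in MOC1 males, at 3.06, 2.89 and 3.13 CPM in sham females and at 8.91 and 5.89 CPM in sham males. Its counts lay between 18 and 205, and the highest library had 11.9 times the level of the lowest. Both extremes were MOC1 libraries. Its log2 fold change was 0.60 ± 0.54 (SE, 95% interval -0.53 to 1.73), with an edgeR adjusted p of 0.648. With single libraries left out it lay at 0.23 (without MOC1 female 2) to 0.90 (without MOC1 male 3).

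Chrnb4, the beta subunit of the same receptor, was at 3.52, 5.13 and 0.221 CPM in MOC1 females, at 7.14, 10.5 and 3.57 CPM in MOC1 males, at 4.84, 5.66 and 3.07 CPM in sham females and at 5.28 and 3.45 CPM in sham males. MOC1 female 3 had only 3 counts of it, and MOC1 male 2 was the highest. MOC1 over sham, the log2 fold change was -0.04 ± 0.61 (SE, 95% interval -1.32 to 1.23), with an edgeR adjusted p of 0.987.

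Chrna4, the alpha subunit of the brain's high-affinity receptor, was at 2.78, 4.06 and 0.221 CPM in MOC1 females, at 3.86, 5.13 and 1.59 CPM in MOC1 males, at 1.35, 0.301 and 0.0591 CPM in sham females and at 0.891 and 2.26 CPM in sham males. These levels rest on 1 to 78 counts a library. All MOC1 libraries except female 3 and male 3 lay above every sham library. Its log2 fold change had the widest interval of the 7, at 1.63 ± 0.91 (SE, 95% interval -0.29 to 3.55), with an edgeR adjusted p of 0.376. With single libraries left out it lay at 1.27 to 2.23. Without the 3 libraries that stood apart it was 2.35, with an adjusted p of 0.179.

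Chrna5, the accessory subunit of the chromosome 9 cluster, had 0 counts in all 11 libraries. A count of 0 allows up to 3 counts, or 0.180 to 0.279 CPM depending on the library. Intervals and floors of this kind cover counting error only. Its neighbours Chrna3 and Chrnb4 had 997 and 811 counts in total over the same libraries.

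**Figure D4:**
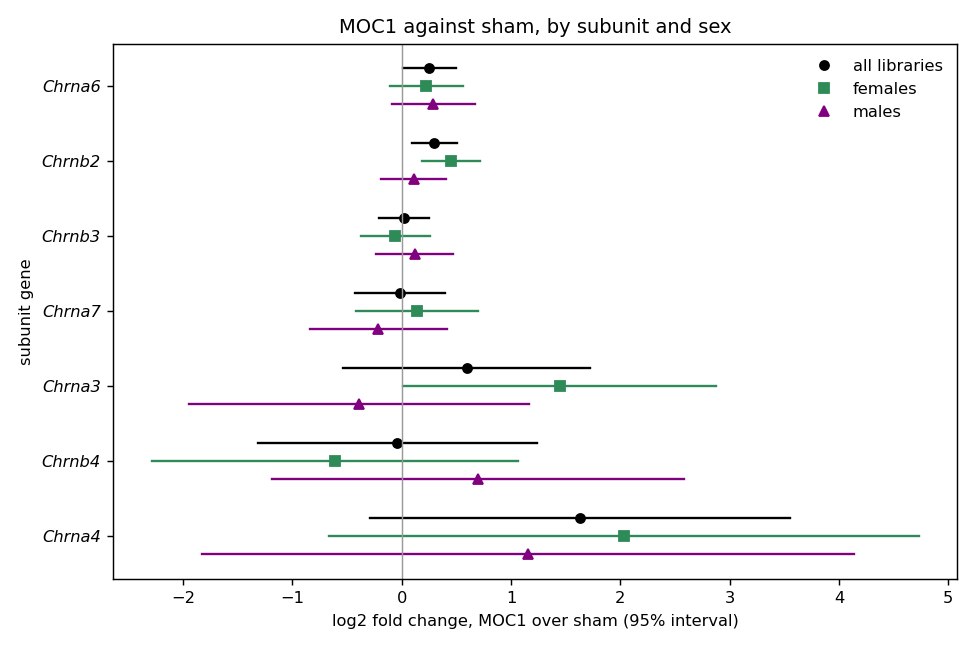
Log2 fold change (MOC1 over sham) of the 7 tested subunits over all libraries, in females and in males; points are estimates and bars are 95% intervals. Chrnb2 has narrow intervals, and Chrna4, Chrnb4 and Chrna3 have wide ones.

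Within females, Chrnb2 was the 1 subunit of 7 tested that passed, where 4.48% of all genes were called. It rose to 129 ± 8.55 CPM in MOC1 females, against 94.1 ± 9.72 CPM in sham females (mean ± SD, n = 3 each), and the 3 MOC1 libraries all lay above the 3 sham libraries. In females 21.3% of all genes tested did not overlap between arms. On the log2 scale the fold change was 0.45 ± 0.13 (SE, 95% interval 0.19 to 0.72, 1.37-fold), with an edgeR adjusted p of 0.0496 and a DESeq2 adjusted p of 0.0163. The call was at the edge of the threshold. It held without MOC1 female 1 (0.51) or MOC1 male 2 (0.45) and was lost without any other single library, with adjusted p up to 0.164. It was also lost under pan-neuronal scaling (0.07, adjusted p 0.799). Chrna3 likewise did not overlap between arms in females, at a log2 fold change of 1.44 ± 0.68 (SE), with an edgeR adjusted p of 0.285, and at 0.87 without MOC1 female 2. Chrna4 was at 2.04 ± 1.28, Chrna6 at 0.23 ± 0.16, Chrna7 at 0.14 ± 0.27, Chrnb3 at -0.06 ± 0.15 and Chrnb4 at -0.61 ± 0.79 (log2 ± SE).

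Within males edgeR called 0 of 7 subunits, where 1.25% of all genes were called, with 0 at an unadjusted p under 0.05 in either tool. DESeq2 called 0 of the 4 to which it gave an adjusted p. The log2 fold change of Chrnb2 was 0.11 ± 0.14 (SE, edgeR adjusted p 0.994). Chrna4 was at 1.16 ± 1.42, Chrnb4 at 0.70 ± 0.90, Chrna6 at 0.29 ± 0.18, Chrnb3 at 0.12 ± 0.17, Chrna7 at -0.21 ± 0.30 and Chrna3 at -0.39 ± 0.74 (log2 ± SE).

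The difference between the sexes was tested directly as an interaction. edgeR called 0 of 7 subunits (0% of all genes), with 0 at an unadjusted p under 0.05, against 4.21% of all genes. DESeq2 also called 0, with 0 at an unadjusted p under 0.05. The male minus female difference in log2 fold change was -0.34 ± 0.19 for Chrnb2 (SE, unadjusted p 0.0873 in edgeR) and -1.84 ± 0.99 for Chrna3 (unadjusted p 0.0822). All adjusted p-values were 1 in edgeR, so the Chrnb2 call in females is not shown to be particular to them.

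The variation that the 4 groups leave over was compared between pairs of subunits, and a few pairs are given. After removal of group means, log2 CPM of Chrnb2 and Chrnb3 correlated at a Pearson r of 0.77 across 11 libraries, Chrna6 and Chrnb3 at 0.67, and Chrna6 and Chrnb2 at 0.51. The cluster neighbours Chrna3 and Chrnb4 were at 0.25, and Chrna3 and Chrna7 at -0.60. Chrna4 and Chrnb4 were at 0.81, and both had 3 counts in MOC1 female 3. These are descriptions with no test, over 11 libraries less 4 group means that share depth and cell make-up. By the same measure the genes most like Chrna6 among 11304 were Slc39a3 (0.94), a zinc transporter, Tlx3 (0.93), a homeobox factor of sensory neurons, and Cdc23 (0.92), a subunit of the anaphase-promoting complex. They are the highest values of a wide search over few libraries, where values this high can arise without a link. No link was tested.

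The other nicotinic subunits were at or near 0. Of 8, Chrna2, Chrna9, Chrnd and Chrng had no counts in any library. Chrna10, which pairs with Chrna9 in hair cells, had 15 counts in total in MOC1 and 33 in sham libraries. The muscle subunits Chrna1 and Chrnb1 had 37 and 33 counts in MOC1, against 40 and 74 in sham libraries. edgeR called 0 of the 3 tested, with 0 at an unadjusted p under 0.05.

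Receptor assembly and modulation genes were tested in 10 of 13 cases, and edgeR called 0, with a median log2 fold change of -0.02. Of the 10, 3 had an unadjusted p under 0.05, as did 18.5% of all genes. Lynx1, a membrane-anchored prototoxin that dampens nicotinic receptors, was at 293 ± 35.8 CPM in MOC1 libraries and 252 ± 40.1 in sham libraries (log2 0.22 ± 0.10 SE, edgeR adjusted p 0.259). Lypd1, a relative of it, was at 11.9 ± 4.94 CPM in MOC1 libraries and 21.4 ± 11.3 in sham libraries (-0.61 ± 0.26, adjusted p 0.206). In sham libraries Lypd1 differed by sex, at 29.3 ± 4.45 CPM in females and 9.66 ± 3.07 in males. Its log2 fold change was -0.94 ± 0.33 in females and -0.17 ± 0.37 in males (SE, edgeR interaction unadjusted p 0.146). Ly6e was at 19.5 ± 2.37 CPM in MOC1 libraries and 48.0 ± 54.9 in sham libraries (-1.19 ± 0.43, adjusted p 0.118). Sham female 1, the library with high endothelial counts, held 145.6 CPM of Ly6e, and without it the log2 fold change was -0.23. Among the alternatives run, Ly6e was called only with no filter on low counts or under pan-neuronal scaling. Pan-neuronal scaling also called Lypd1 (-0.91, adjusted p 0.0274). The chaperones Ric3 and Tmem35a, chosen after their values were seen because nicotinic receptors need them, did not pass in the comparison by TMM. Ric3 was at 103 ± 17.7 CPM in MOC1 libraries and 110.4 ± 11.2 in sham libraries (-0.09 ± 0.11, adjusted p 0.769, and -0.38, adjusted p 0.0369, under pan-neuronal scaling), and Tmem35a at 61.6 ± 7.18 CPM in MOC1 libraries and 54.3 ± 7.71 in sham libraries (0.19 ± 0.12, adjusted p 0.462).

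Genes that make, move and break down acetylcholine gave edgeR calls for 0 of 5 tested of 7, with 0 at an unadjusted p under 0.05. Chat, which makes acetylcholine, and Slc18a3, its vesicular transporter, had 0 counts in all libraries. Ache, the enzyme that degrades it, was at 74.9 ± 15.7 CPM in MOC1 libraries and 72.1 ± 5.86 in sham libraries (log2 0.03). The choline transporter Slc5a7 had a log2 fold change of -0.45 ± 0.60, the enzyme anchor Colq -0.76 ± 0.78 and the esterase Bche -0.05 ± 0.18 (SE, edgeR adjusted p 0.793, 0.701 and 0.935 in that order).

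Among the G-protein-coupled muscarinic receptors edgeR called 0 of 4 tested, with 0 at an unadjusted p under 0.05, and Chrm5 had no counts. Chrm2 was at 22.0 ± 7.03 CPM in MOC1 libraries and 19.0 ± 3.97 in sham libraries (log2 0.23 ± 0.25 SE, adjusted p 0.718). Chrm3 was at 0.403 ± 0.444 CPM in MOC1 libraries and 1.96 ± 0.955 in sham libraries (-2.34 ± 1.21, adjusted p 0.321). Chrm1 was at 1.71 ± 1.26 CPM in MOC1 libraries and 0.726 ± 0.706 in sham libraries (1.23 ± 1.20, adjusted p 0.683).

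Of 5 genes on chromosome 9, Ireb2, Hykk and Psma4 lie just before Chrna5, from chr9:54863789 to chr9:54958030. Morf4l1 and Adamts7 were listed with them but lie far away on GRCm38, from chr9:90091665 to chr9:90208071. edgeR called 0 of the 5, with 1 at an unadjusted p under 0.05, against 18.5% of all genes. Ireb2, an iron regulatory protein, was at 134 ± 8.17 CPM in MOC1 libraries and 124 ± 13.0 in sham libraries, and Psma4, a proteasome subunit, at 82.9 ± 9.02 CPM in MOC1 libraries and 77.6 ± 4.22 in sham libraries. Adamts7, a secreted metalloprotease, was at 4.19 ± 2.80 CPM in MOC1 libraries and 10.8 ± 5.02 in sham libraries (log2 -1.51 ± 0.63 SE, edgeR adjusted p 0.194). Without the 3 libraries that stood apart its adjusted p was 0.00889, and with no filter on low counts it was 0.0104.

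**Figure D5:**
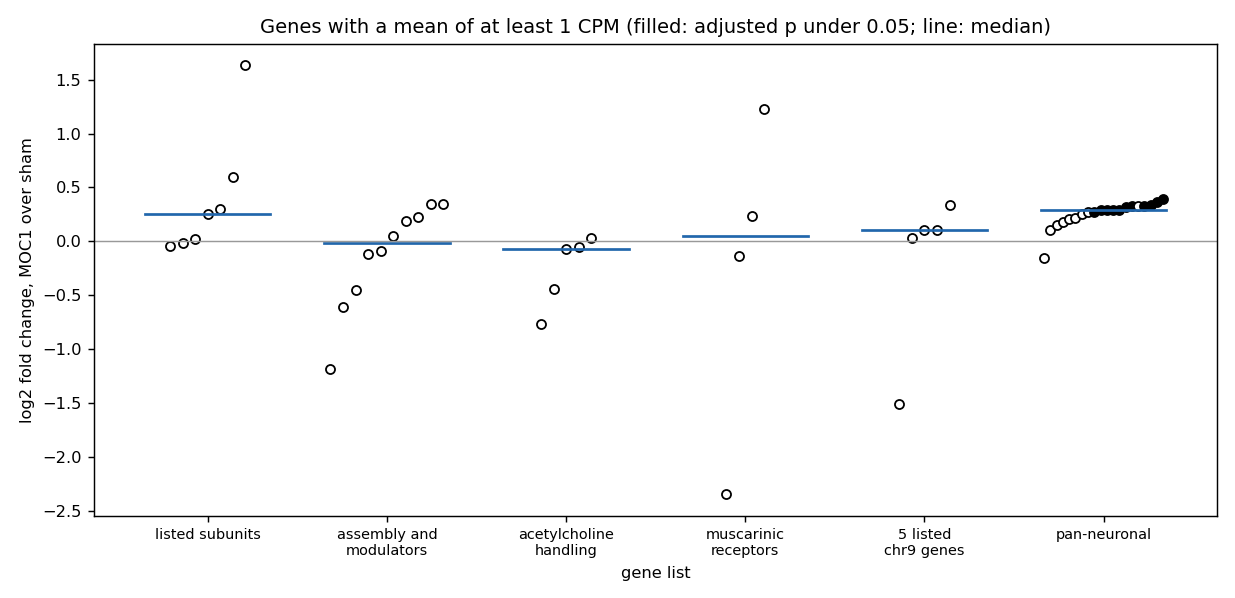
Log2 fold change (MOC1 over sham) of genes with a mean of at least 1 CPM in 6 gene lists; points are genes, filled where the adjusted p is under 0.05, and lines are medians of the genes drawn. No listed subunit is filled, and 11 pan-neuronal genes are.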

How the data were processed

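The deposited tables, 1 a library, hold raw counts of single-end reads per gene by strand, per the file headers; the whole-number values carry no normalization. Trimmomatic 0.35, STAR 2.7.1a, RSEM and GRCm38 (mm10) are named in the submitters' processing notes, with no annotation release named there. Rows that name no gene (4 a table, 18.7% to 21.5% of counts) entered neither library sizes nor tests. Of 55401 gene identifiers, 55141 matched GENCODE M21, which gave exon lengths.

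The analysis used edgeR 4.0.16 under R 4.3.3. filterByExpr on the 4 groups left 16817 genes, scaled by TMM. MOC1 was compared with sham over all 11 libraries by a quasi-likelihood F test with sex as a term. A 4-group fit gave the comparisons within each sex and the interaction. Adjusted p-values are Benjamini-Hochberg over all genes tested, with a threshold of 0.05. SE is the size of the log2 fold change over the square root of F. Correlations use log2 CPM with a prior count of 2, less the group means. The search for genes like Chrna6 took genes with a mean of at least 5 CPM, a limit not applied between members. The fits were tested on simulated counts first. No libraries of a group agreed within sampling noise (chi-square per degree of freedom 13.9 to 42.6).

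All members are named. Of each other list that is no cell type list, every called gene is named, filled up to 3 by the smallest p, and the most abundant gene may be named. Some genes that the rule takes, with their list, are not reported here. The 3 genes most like the member with the highest mean CPM are named too. The members and lists were chosen with earlier results of these data known. Alternatives were DESeq2 1.42.0, other scalings and low-count filters, a glial marker covariate, a replicate block, no sex term, and libraries left out singly or 3 together (sham female 1, MOC1 female 3 and MOC1 male 2).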

Additional observations from a re-analysis of the deposited data

Results flagged for a closer look

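Of 14 groups of libraries tested for a value far from the others (7 subunits in MOC1 and sham libraries), 1 was flagged. Chrna6 was at 103 CPM in sham female 2, below the other 4 sham libraries. The gap was 0.758 of the group's range, above Dixon's critical value of 0.71. Chance flags about 1 in 20 groups. Without this library the log2 fold change of Chrna6 was 0.22 and its edgeR adjusted p 0.444.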

How the results depend on the processing

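No subunit was called overall under the replicate block, other low-count filters, DESeq2, its size factors, total-count or pan-neuronal scaling, a glial covariate or no sex term. Satellite glia scaling gave 6 calls, where 10209 of 16817 genes were called. Leaving out 3 libraries gave 2, where 1245 of 16301 genes were called. With single libraries left out the count was 0 to 1. In females the 1 call became 6 under satellite glia scaling. It became 0 under total-count scaling, pan-neuronal scaling, the glial covariate, the replicate block and without 3 libraries, and was 0 to 1 with single libraries left out. In males satellite glia scaling gave 4 calls. The share of all genes called within a sex under that scaling is not given here. Males otherwise, and the interaction throughout, gave 0.

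Over all genes the 1113 calls (394 higher, 719 lower) became 2588 (28 higher, 2560 lower) under pan-neuronal scaling, 10209 (10163 higher, 46 lower) under satellite glia scaling and 0 under the glial covariate, whose values do not overlap between arms. DESeq2 gave 1556. Single libraries left out gave 816 to 1129. The 2 marker scalings moved the median of all genes to -0.32 and 1.11.

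No pairing by replicate number was seen: same-numbered deviations correlated at -0.04 to 0.05, and 1 of 6 female libraries was closest to its own number in the other arm. With so few libraries a group these values say little, and shared processing was not tested. The replicate block gave 1090 calls and, for Chrnb2 in females, 0.45 with an edgeR adjusted p of 0.0633.

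Of 1032 gene values under alternatives, 920 kept direction and side of the threshold, and 65 changed sign, 60 of these with no call on either side. The cause was not tested. Values that changed sign (log2, MOC1 over sham) follow. Under pan-neuronal scaling they were -0.05 for Chrna6, -0.0019 for Chrnb2, -0.28 for Chrnb3, -0.069 for Lynx1, -0.059 for Chrm2, -0.20 for Ireb2, -0.20 for Psma4 and -0.11 for Tmem35a. In females they were -0.16 for Chrna6 and -0.22 for Chrna7, and in males -0.090 for Chrnb2 and -0.079 for Chrnb3. Under satellite glia scaling they were 1.15 for Chrna7, 0.99 for Chrnb4, 0.60 for Lypd1, 0.32 for Colq, 0.59 for Slc5a7, 1.08 for Bche and 1.02 for Ric3. In females they were 1.11 for Chrnb3 and 0.42 for Chrnb4, and in males 0.66 for Chrna3 and 0.93 for Chrna7. With the glial covariate they were -0.66 for Chrna3, -0.21 for Chrna6, -0.033 for Chrnb2, -0.11 for Chrnb3, 3.92 for Chrnb4, 2.44 for Slc5a7, 0.034 for Chrm3, 4.29 for Adamts7, -0.12 for Ireb2, -0.14 for Psma4 and 0.59 for Ric3. In females they were -0.25 for Chrna6 and 3.23 for Chrnb4, and in males -0.17 for Chrna6, -0.18 for Chrnb2 and -0.023 for Chrnb3. Without 3 libraries they were 0.15 for Chrnb4, 0.65 for Chrnb1 and 0.021 for Bche. Chrnb4 was at 0.17 with no sex term, and Chrnb3 at -0.0011 with total counts.

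With single libraries left out, Chrna7 lay at -0.15 to 0.081, Chrnb3 at -0.015 to 0.063, Chrnb4 at -0.29 to 0.32, Chrnb1 at -2.72 to 0.15 and Bche at -0.14 to 0.044. Chrna6 lay at -0.0073 to 0.36 and Chrna7 at -0.0028 to 0.34 in females, Chrna3 at -1.0 to 0.092 in males, and the Chrna6 interaction at -0.069 to 0.30. Chrna4, Chrnb4 and Chrna3 had few counts, and their libraries also differed by more than counting error. The SD was 3.96, 6.01 and 6.46 times that expected from counting in MOC1 libraries, in that order. In sham libraries it was 3.62, 2.19 and 4.85 times. These SDs pool the sexes of an arm, so a difference between the sexes counts as spread. Chrna3 in sham libraries was at 3.03 ± 0.125 CPM in females and 7.40 ± 2.14 CPM in males (mean ± SD).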
